A study of Homo sapiens with 18 samples.

Results

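The 10 genes described here encode the 4 Notch receptors NOTCH1, NOTCH2, NOTCH3 and NOTCH4, the ligands JAG1, JAG2, DLL1 and DLL4, and the target genes HES1 and HEY1. They were taken by name from the 19901 genes of a count table, with earlier results of these data known. The table holds mRNA sequencing of 18 libraries from Detroit 562, FaDu and SCC-9, established cell lines of head and neck squamous cell carcinoma (HNSCC). In each line 3 libraries came from untreated control cells and 3 from cells given 50 ng/mL hepatocyte growth factor (HGF), the ligand of the receptor tyrosine kinase Met. The time of exposure is 16 h by the sample records, whereas the series record says 48 h.

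Detroit 562 was derived from a metastasis of a pharyngeal tumor, FaDu from a hypopharyngeal tumor and SCC-9 from a tumor of the tongue. Detroit 562 and FaDu were grown in MEM-α, whereas SCC-9 was grown in DMEM F12 with 400 ng/mL hydrocortisone, so the line and the medium cannot be told apart in comparisons with SCC-9. Each line is a single tumor's culture, and the 3 replicates are repeats of the experiment in that culture. Control and treated cells of a line differed in the added HGF alone as far as the records say. The libraries held between 35304770 and 44003970 counts, and all 10 members passed the filter on low counts.

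Notch receptors are cleaved when a Jagged or Delta-like ligand on a neighboring cell binds them, and the released intracellular domain enters the nucleus. There it joins the DNA-binding protein RBPJ and a Mastermind protein and switches on genes such as those of the HES and HEY families of transcriptional repressors. In stratified squamous epithelium the pathway is known for driving keratinocytes out of the basal layer into differentiation, and NOTCH1 is a recurrently mutated gene of HNSCC.

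The receptor genes lie, in GRCh38, at chr9:136494433-136545786 (NOTCH1), chr1:119911553-120069626 (NOTCH2), chr19:15159038-15200981 (NOTCH3) and chr6:32194843-32224067 (NOTCH4), all on the minus strand. The ligand genes lie at chr20:10637684-10673999 (JAG1), chr14:105140981-105168824 (JAG2) and chr6:170282206-170306565 (DLL1) on the minus strand and at chr15:40929340-40939072 (DLL4) on the plus strand. HES1 lies at chr3:194136145-194138732 on the plus strand. Counts covered each gene's whole extent, introns included. NOTCH4 shares 681 bases with GPSM3 on the same strand, so a read there was counted for both genes. An annotated lncRNA covers 16631 bases of JAG2 on its strand, so a read of that lncRNA there was counted for JAG2 too. NOTCH2 and its partial copy NOTCH2NL are nearly identical over part of their sequence, so a read that aligned to both could have been counted for both.

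RBPJ binds DNA at the core TGGGAA, and the promoters of NOTCH3, the member with the largest fall with HGF in Detroit 562, and of HES1, HEY2 and HEYL, target genes that also fell there, are shown. The windows run from 250 bases before to 50 bases after the RefSeq gene start (GRCh38.p14) and are written 5′ to 3′ on the gene's strand, with TGGGAA or its reverse complement TTCCCA in capitals. The HES1 window is chr3:194135898-194136197 on the plus strand. The HEY2 window is chr6:125749382-125749681 on the plus strand, the HEYL window chr1:39639594-39639893 on the minus strand, and the NOTCH3 window chr19:15200946-15201245 on the minus strand.
HES1: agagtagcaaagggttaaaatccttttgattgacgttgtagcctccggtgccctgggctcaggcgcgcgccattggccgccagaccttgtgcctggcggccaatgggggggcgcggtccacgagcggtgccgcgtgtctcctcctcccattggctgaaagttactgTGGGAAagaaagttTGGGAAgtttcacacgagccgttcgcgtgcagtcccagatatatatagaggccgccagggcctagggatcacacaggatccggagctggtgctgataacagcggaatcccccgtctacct
HEY2: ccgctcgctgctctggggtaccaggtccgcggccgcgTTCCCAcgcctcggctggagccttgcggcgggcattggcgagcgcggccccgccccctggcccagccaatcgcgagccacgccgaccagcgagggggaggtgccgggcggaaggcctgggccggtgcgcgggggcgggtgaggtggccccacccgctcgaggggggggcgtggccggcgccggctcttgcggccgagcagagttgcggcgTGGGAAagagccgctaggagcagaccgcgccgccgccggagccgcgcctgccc
HEYL: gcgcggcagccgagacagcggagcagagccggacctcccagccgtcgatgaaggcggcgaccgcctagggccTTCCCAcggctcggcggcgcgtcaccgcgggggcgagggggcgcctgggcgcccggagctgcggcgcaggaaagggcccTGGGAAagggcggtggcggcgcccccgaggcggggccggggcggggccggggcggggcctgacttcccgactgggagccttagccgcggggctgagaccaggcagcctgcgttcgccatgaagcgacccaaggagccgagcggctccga
NOTCH3: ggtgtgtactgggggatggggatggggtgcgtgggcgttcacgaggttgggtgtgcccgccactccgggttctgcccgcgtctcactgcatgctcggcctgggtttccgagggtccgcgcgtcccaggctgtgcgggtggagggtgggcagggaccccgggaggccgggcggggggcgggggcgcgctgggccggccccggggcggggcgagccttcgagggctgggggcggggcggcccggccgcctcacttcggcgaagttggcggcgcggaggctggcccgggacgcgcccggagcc
HES1 carries the core at 84 and 70 bases before its start in the same orientation. HEYL carries it at 178 and 99 bases and HEY2 at 213 and 3 bases before the start, in both cases once in each orientation. The NOTCH3 window holds neither form. Of 35116 RefSeq promoters of this length, 24.0% hold at least 1 match and 3.8% hold at least 2. Promoters were matched for 8 of the 10 members, and HES1 was the only one of the 8 with a match. DLL1 and HEY1, a target gene that fell in Detroit 562 too, had no promoter in the set used. Of 8 promoters of HES and HEY genes, 5 held at least 1 match and 4 held at least 2. Of 67 promoters of pathway genes outside the 10 members, some with several promoters a gene, 16 (23.9%) held a match, close to the share of all promoters. The promoters of DTX4, NEURL1B, DLK2, DTX3L, TLE2 and TLE3, which also fell in Detroit 562, held none. LFNG, which fell there too, held 1 match in each of its listed promoters. HES5 held 2 matches and HES4 held 1, and neither gene was called there. HES7, which rose there, held no match. A match is a description of the letters in the window and not a measured binding site.

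To describe how the lines differ before treatment, levels were set side by side as counts normalized for library size by the TMM method (normalized counts). NOTCH1 was highest in FaDu, with 11306, 9678 and 8279 normalized counts in replicates 1 to 3. The SCC-9 controls held 3643, 4352 and 4640, and the Detroit 562 controls 2236, 1993 and 1799. The 3 lines did not overlap for NOTCH1, and FaDu lay 4.85-fold above Detroit 562 (log2 difference of Detroit 562 against FaDu -2.28, SE 0.15, adjusted p = 5.18e-10) and 2.32-fold above SCC-9 (adjusted p = 8.27e-07). The quasi-likelihood test of edgeR gave these and all further p values, adjusted by the Benjamini-Hochberg method over the 15475 genes tested. Genes with an adjusted p under 0.1 whose log2 fold change reached 0.4 in either direction count as called.

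NOTCH2 took the same order, with means of 9904 ± 800 in FaDu, 7380 ± 103 in SCC-9 and 4209 ± 339 in Detroit 562 controls (SD, n = 3 each). FaDu exceeded SCC-9 by a log2 of 0.42 (adjusted p = 0.00161), a call that was lost without FaDu control replicate 2, where the log2 difference was 0.37. NOTCH3 had 7223, 7319 and 4451 normalized counts in FaDu controls, whereas Detroit 562 controls had 5883, 5640 and 2904 and SCC-9 controls 1245, 1807 and 2322. Both FaDu and Detroit 562 lay above SCC-9, by a log2 of 1.82 (SE 0.40, adjusted p = 0.000612) and 1.43 (SE 0.40, adjusted p = 0.00389), and NOTCH3 did not pass the test between FaDu and Detroit 562 (log2 difference of Detroit 562 against FaDu -0.40, 95% interval -1.22 to 0.43). That last difference was called, at -0.43 (adjusted p = 0.00181), in a fit with a replicate block, which takes up shifts shared by the control and HGF libraries of one replicate number in a line. In a comparison between lines the error of that fit leaves out the spread between replicate numbers, so its p values there are too small. NOTCH4 had few counts, with a raw range of 4 to 10 for Detroit 562, 5 to 8 for FaDu and 26 to 29 for SCC-9 controls, and SCC-9 was 3.39-fold above Detroit 562 and 4.59-fold above FaDu (adjusted p = 0.000209 and 3.41e-05).

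Of the ligands, JAG2 was higher in Detroit 562 and FaDu than in SCC-9. It reached 12399 ± 740 normalized counts in Detroit 562 and 10333 ± 231 in FaDu controls, against 4482 ± 518 in SCC-9. Detroit 562 and FaDu lay above SCC-9 by a log2 of 1.47 and 1.21, and they differed from each other by 0.26, under the minimum fold change. JAG1 took another order, with 6447 ± 204 in Detroit 562, 4188 ± 162 in SCC-9 and 2779 ± 172 in FaDu, and every pair of lines was called. DLL1 was highest in FaDu (2010 ± 192), lower in Detroit 562 (881 ± 146) and lowest in SCC-9 (509 ± 103), again with every pair called. By mean level the 3 ligands ranked the lines in 3 different orders. DLL4, a ligand known best from endothelium, had raw counts of 5 to 13 in the 9 control libraries. Its difference between Detroit 562 and SCC-9 (log2 difference -0.78, adjusted p = 0.0833) was lost without Detroit 562 control replicate 2 or 3 or SCC-9 control replicate 1 or 3, where the adjusted p reached 0.207. It was not called with the replicate block (adjusted p = 0.117) or with DESeq2 (adjusted p = 0.227) either.

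HES1 was called between no pair of lines, and DLL4 only between the pair just given. Control means were 1987 ± 393 normalized counts for FaDu, 1873 ± 411 for Detroit 562 and 1583 ± 312 for SCC-9. The 95% interval of its log2 difference ran from -0.55 to 0.38 for Detroit 562 against FaDu, from -0.22 to 0.71 for Detroit 562 against SCC-9 and from -0.14 to 0.79 for FaDu against SCC-9. It was called between FaDu and SCC-9 when FaDu control replicate 3 or SCC-9 control replicate 3 was left out, with a log2 difference of up to 0.50. HEY1 showed the widest spread of all members between lines. Detroit 562 controls had raw counts of 130, 94 and 85, FaDu controls 14, 15 and 6 and SCC-9 controls 26, 14 and 24. Detroit 562 lay 9.27-fold above FaDu (log2 difference 3.21, SE 0.33, adjusted p = 1.63e-07) and 5.04-fold above SCC-9 (2.33, SE 0.31, adjusted p = 2.48e-06). The difference of FaDu from SCC-9 (-0.88, adjusted p = 0.0423) was lost without FaDu control replicate 3 or SCC-9 control replicate 1 or 3, with an adjusted p of up to 0.19.

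In all, 5 of the 10 members were called between untreated Detroit 562 and FaDu, 9 between Detroit 562 and SCC-9 and 8 between FaDu and SCC-9. Of all genes tested, 61.0%, 65.4% and 64.2% were called in these comparisons, so line differences were common among genes at large.

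**Figure D1:**
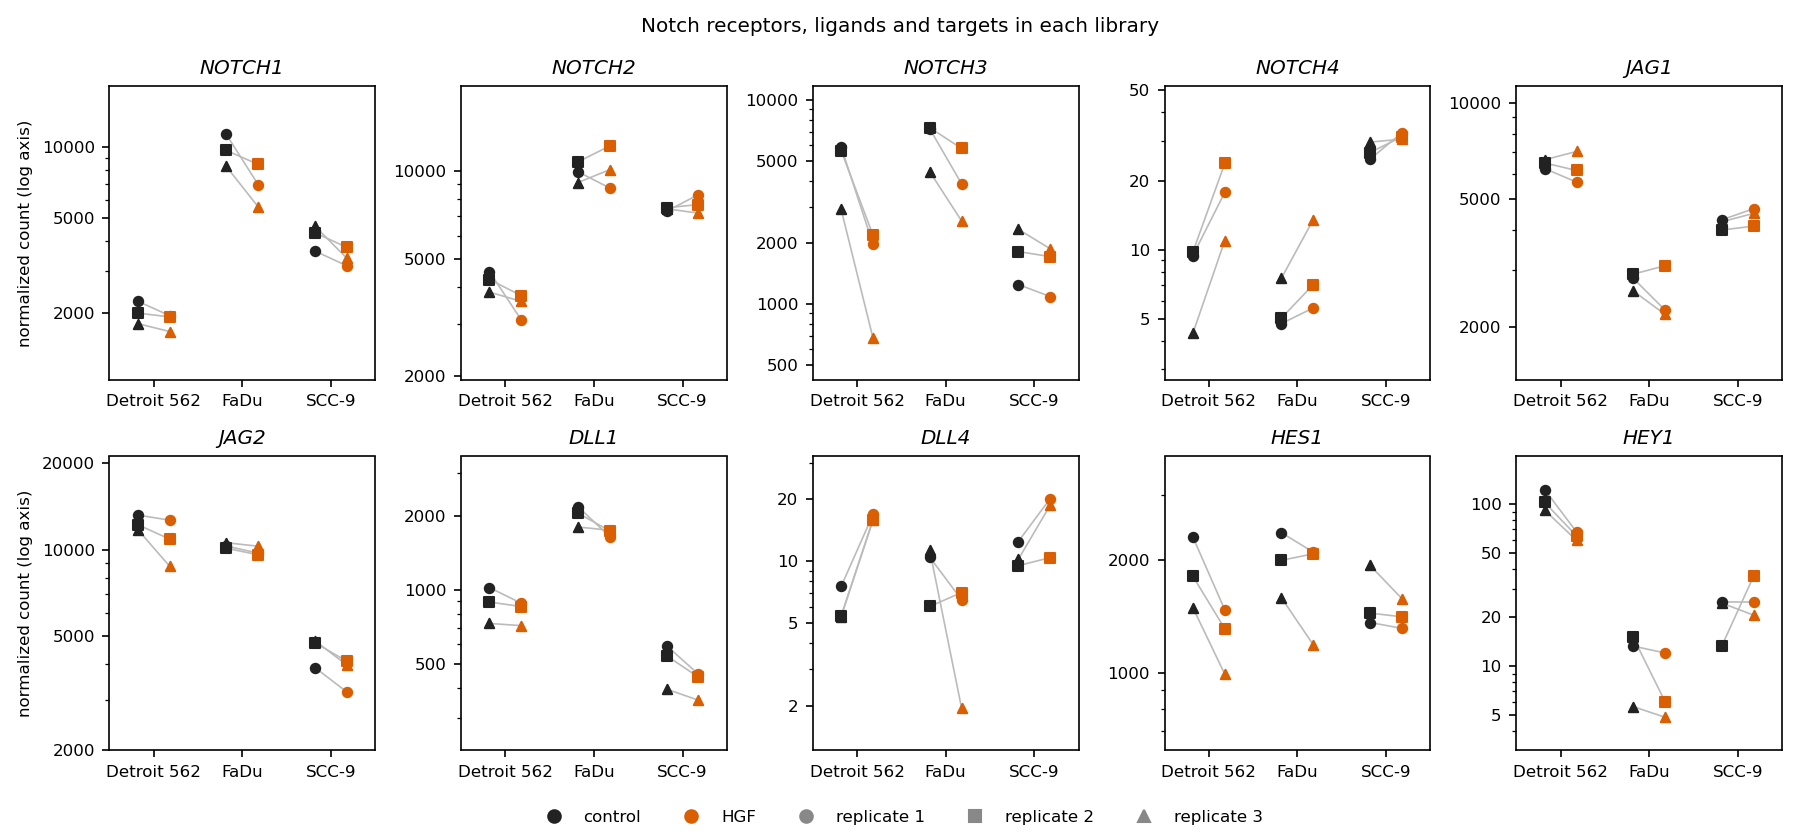
Normalized counts of the 10 genes in each of the 18 libraries, on log axes whose range differs between panels; black symbols are control and orange symbols HGF libraries, the symbol shape is the replicate number, and grey lines join libraries of the same number. For NOTCH3 in Detroit 562 the controls lie between 2904 and 5883 and the HGF libraries between 678 and 2172. NOTCH4 and DLL4 have low counts in every library, with NOTCH4 higher in SCC-9 than in the other lines.

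To compare receptors and ligands with each other, normalized counts were divided by the length of the canonical GENCODE 44 transcript in kb. Counts include introns and these lengths do not, so intronic reads can raise a gene on this scale. NOTCH2 spans 158074 bases for a transcript of 11425, and NOTCH3 spans 41944 for 8680. The part of intronic reads in the order of the genes was not tested. In untreated Detroit 562 NOTCH3 made up 47.8% ± 7.7 of the summed receptor level per kb, NOTCH2 33.2% ± 5.2 and NOTCH1 18.9% ± 2.6 (SD, n = 3). In FaDu NOTCH1 led with 39.0% ± 2.5, followed by NOTCH2 with 33.4% ± 3.3 and NOTCH3 with 27.5% ± 3.5. In SCC-9 NOTCH2 led with 50.1% ± 4.3, followed by NOTCH1 with 33.9% ± 1.0 and NOTCH3 with 15.7% ± 3.4. By these means each line had another leading receptor, but in Detroit 562 control replicate 3 NOTCH3 (335 normalized counts per kb) and NOTCH2 (337) were nearly level. The mean share of NOTCH4 was at most 0.31% in the controls of any line. JAG2 had the highest mean of the ligands per kb in the controls of every line, at 64.1% of the ligand sum in FaDu, 61.9% in Detroit 562 and 47.9% in SCC-9, and JAG1 stood at 43.6% in SCC-9, where it exceeded JAG2 in 1 of the 3 control libraries.

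To find out how HGF changed the pathway in Detroit 562, HGF and control libraries of this line were compared. NOTCH3, HES1 and HEY1 fell and NOTCH4 and DLL4 rose, so 5 of the 10 members were called. Of all genes tested 17.9% were called in this comparison, 11.7% as lower and 6.16% as higher. The median log2 fold change of the 10 members was -0.16, beside -0.01 for all genes. In bulk libraries, fewer cells that express a gene and less RNA of it per cell cannot be told apart.

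NOTCH3 showed the largest fall of the members. Detroit 562 controls had 5883, 5640 and 2904 normalized counts and HGF libraries 1958, 2172 and 678 in replicates 1 to 3. Every HGF library lay below every control, and replicate 3 was the lowest of both groups. The level was 3.0-fold lower with HGF (log2 fold change -1.58, SE 0.40, adjusted p = 0.0104), and within same-numbered pairs the log2 ratio was -1.59, -1.38 and -2.10. The call was kept when any of the 18 libraries was left out. In the fit with the replicate block the estimate was -1.66 with an SE of 0.12. The share of NOTCH3 in the receptor sum per kb was 26.0% ± 10.6 with HGF, NOTCH2 led with 45.2% ± 8.8, and the sum itself was 684 ± 109 normalized counts per kb with HGF against 1134 ± 240 in controls (SD, n = 3).

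The other abundant receptors moved less. NOTCH2 had 4525, 4250 and 3851 normalized counts in Detroit 562 controls and 3092, 3746 and 3579 with HGF. The groups did not overlap and the adjusted p was 0.0645, but the log2 fold change of -0.28 was below the minimum for a call. NOTCH1 was 2009 ± 219 in controls and 1843 ± 154 with HGF (log2 fold change -0.12, 95% interval -0.43 to 0.18), which did not pass the test. NOTCH4 rose 2.22-fold (log2 fold change 1.15, SE 0.37, adjusted p = 0.0326), from raw counts of 10, 9 and 4 to 18, 21 and 9. After normalization every HGF library lay above every control, but the call was lost without Detroit 562 HGF replicate 2 (log2 fold change 0.87, adjusted p = 0.133). GPSM3, which shares sequence with NOTCH4, had 202, 241 and 227 normalized counts in the same controls and 297, 290 and 306 with HGF, and its part in the NOTCH4 result was not tested.

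HES1 and HEY1, the targets, both fell. HES1 had 2310, 1814 and 1494 normalized counts in Detroit 562 controls and 1475, 1312 and 992 with HGF, and the groups did not overlap. Its log2 fold change was -0.57 (SE 0.22, adjusted p = 0.0675), and the 3 same-numbered pairs gave -0.65, -0.47 and -0.59. HEY1 had raw counts of 130, 94 and 85 in controls and 68, 56 and 49 with HGF, again without overlap, at a log2 fold change of -0.73 (SE 0.28, adjusted p = 0.0615). Both calls were lost without Detroit 562 control replicate 1 or 2 or HGF replicate 2 or 3, where the log2 fold change ran up to -0.39 for HES1 (adjusted p up to 0.297) and up to -0.61 for HEY1 (adjusted p up to 0.223). With the replicate block, in which 21.5% of all genes were called, the estimates stayed at -0.57 and -0.73, with adjusted p values of 4.2e-05 and 0.0108.

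Of the ligands in Detroit 562, DLL4 rose and the 3 abundant ones were not called. DLL4 had raw counts of 8, 5 and 5 in controls and 17, 14 and 13 with HGF (log2 fold change 1.38, SE 0.38, adjusted p = 0.0161). All HGF libraries lay above all controls, and the call held when each library was left out in turn, although it rests on a few reads. JAG1 had a log2 fold change of -0.04 (95% interval -0.27 to 0.19), JAG2 of -0.20 (-0.45 to 0.04) and DLL1 of -0.11 (-0.41 to 0.20). JAG2 nevertheless fell within all 3 same-numbered pairs, to 12680, 10894 and 8763 from 13210, 12226 and 11761 normalized counts.

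Counted over all members in Detroit 562, HGF libraries lay wholly below controls for 4 (NOTCH2, NOTCH3, HES1 and HEY1) and wholly above for 2 (NOTCH4 and DLL4), beside 20.1% and 18.1% of all genes tested. The two-sided exact permutation test gives p = 0.1 for each of the 6, the smallest value that 3 libraries against 3 allow. Within pairs 7 members were lower 3 times of 3 and 2 were higher, beside 32.3% and 30.6% of all genes.

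The identity of the cells was checked with marker lists. All 7 epithelial markers were detected in every group, with KRT14 low in Detroit 562 (34.1 to 57.3 normalized counts) and abundant in the other lines. In Detroit 562 the summed epithelial markers ranged from 210706 to 301112 normalized counts in controls and from 138103 to 202352 with HGF. The 5 endothelial markers summed to 49.7 to 125 in controls and 28.1 to 49.6 with HGF, the 5 fibroblast markers to 1193 to 2175 and 600.2 to 1105, and the 4 leukocyte markers to 815 to 1624 and 1497 to 2253. Of the 5 fibroblast markers, 1 had no count in any Detroit 562 control and 3 had none in any HGF library of this line. The part of these marker lists in the changes of NOTCH3, HES1, HEY1, NOTCH4 and DLL4 was not tested.

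**Figure D2:**
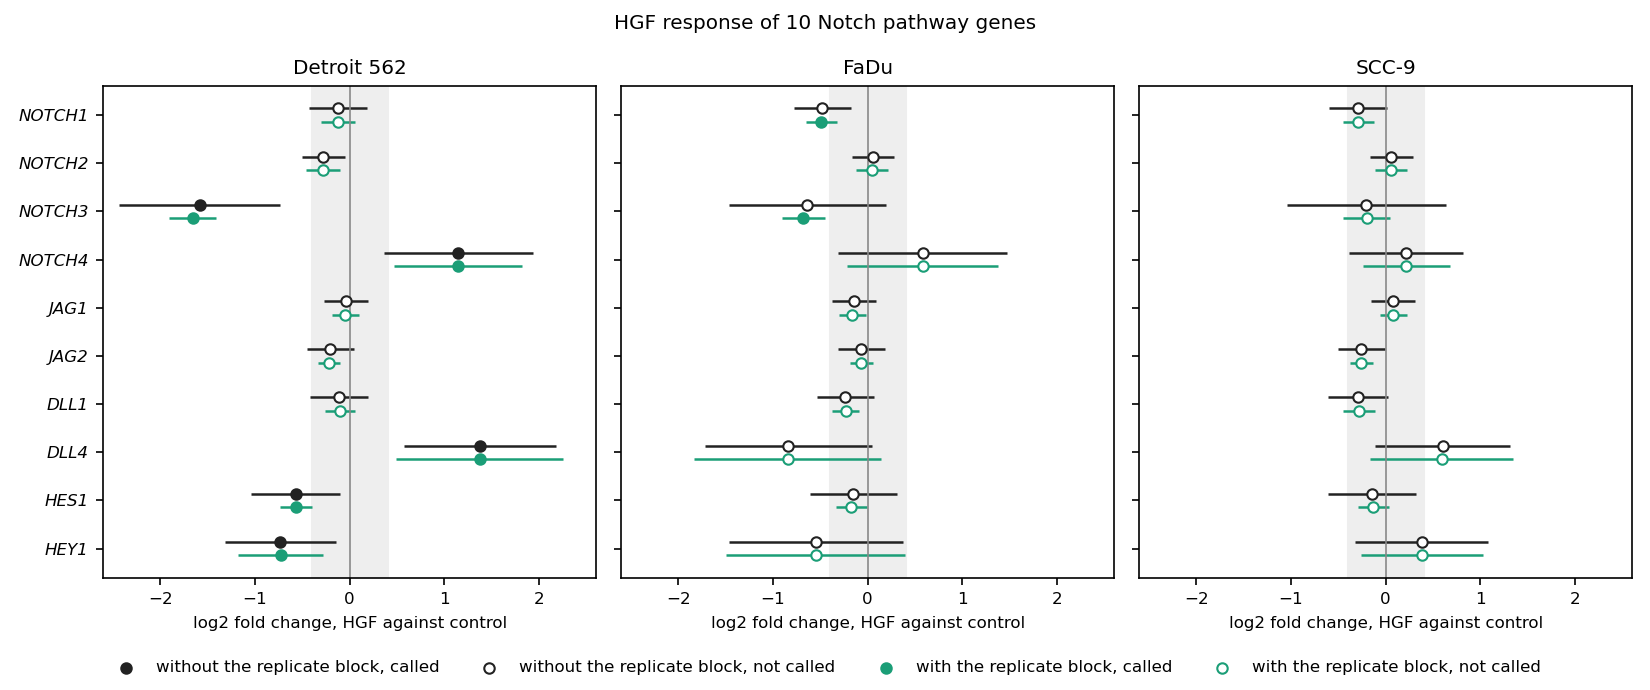
Log2 fold change of HGF against control for each gene in the 3 lines, with 95% intervals; filled symbols were called, open ones were not, black is the fit without and green the fit with the replicate block, and the grey band marks changes under 0.4. In Detroit 562 the same 5 genes are filled in both fits, and in FaDu NOTCH1 and NOTCH3 are filled only with the block.

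FaDu was compared in the same way. Without the replicate block none of the 10 members was called, beside 0.0258% of all genes, and 1 member, NOTCH1, had an unadjusted p below 0.05. NOTCH1 had 11306, 9678 and 8279 normalized counts in controls and 6946, 8447 and 5593 with HGF. Only HGF replicate 2 reached into the control range, and all 3 same-numbered pairs were lower, by log2 ratios of -0.70, -0.20 and -0.57. The log2 fold change was -0.48 (SE 0.14, adjusted p = 0.475). NOTCH3 went from 7223, 7319 and 4451 to 3880, 5783 and 2550, also lower in every pair, at -0.64 (SE 0.39, adjusted p = 0.653).

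In the fit with the replicate block, NOTCH1 (log2 fold change -0.49, SE 0.08, adjusted p = 0.000906) and NOTCH3 (-0.68, SE 0.11, adjusted p = 0.00113) were both called as lower in FaDu, beside 5.6% of all genes called and 3.6% called as lower. DESeq2 without a block called 0 members and 0.338% of all genes. Replicate 3 was the lowest library of its group for NOTCH3 in both FaDu groups. HES1 was 1987 ± 393 in FaDu controls and 1792 ± 523 with HGF (log2 fold change -0.15, 95% interval -0.61 to 0.31), and its 3 pairs did not share a direction. DLL1 was the only member whose FaDu groups did not overlap, with 2179, 2050 and 1801 normalized counts in controls and 1644, 1737 and 1747 with HGF (exact permutation p = 0.1, beside 5.36% of genes wholly below). Its log2 fold change was -0.23 (adjusted p = 0.652). HEY1 and DLL4 had raw counts of 2 to 15 in FaDu, and neither passed the test.

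In SCC-9 none of the 10 members was called, with or without the replicate block, beside 0.0% of all genes without and 1.97% with it. DESeq2 also called 0 members and 0.0973% of genes. Without the block every member had an edgeR adjusted p of 1.0, and 1 member, JAG2, had an unadjusted p below 0.05. JAG2 had 3885, 4743 and 4817 normalized counts in controls and 3195, 4087 and 3965 with HGF, so the groups overlapped and every pair was lower. With the block JAG2 (log2 fold change -0.26, adjusted p = 0.021), NOTCH1 (-0.29, adjusted p = 0.0603) and DLL1 (-0.28, adjusted p = 0.0811) reached an adjusted p under 0.1 but not the minimum fold change. NOTCH3 had 1245, 1807 and 2322 normalized counts in controls and 1087, 1705 and 1864 with HGF, a log2 fold change of -0.21 (95% interval -1.04 to 0.63). HES1 was 1583 ± 312 and 1436 ± 134. NOTCH4 was the only member whose SCC-9 groups did not overlap, with 26, 28 and 29 raw counts in controls and 34, 33 and 31 with HGF (exact permutation p = 0.1, beside 8.3% of genes wholly above).

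Averaged over the 3 lines, NOTCH3 (log2 fold change -0.81, SE 0.23, adjusted p = 0.023) and NOTCH4 (0.65, SE 0.21, adjusted p = 0.0408) were called, beside 6.89% of all genes. The NOTCH4 call was lost without FaDu HGF replicate 3 (log2 fold change 0.50, adjusted p = 0.117). NOTCH1 was at -0.30 (adjusted p = 0.021), JAG2 at -0.18 (adjusted p = 0.077) and DLL1 at -0.21 (adjusted p = 0.0865), all under the minimum fold change. In all, 4 members (NOTCH1, NOTCH3, JAG2 and DLL1) were lower in 9 of 9 same-numbered pairs, beside 8.42% of all genes, and NOTCH4 was higher in 9 of 9, beside 7.7%.

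To see whether the lines responded differently, the difference between their HGF responses was tested itself. Without the replicate block 0 of the 10 members had an adjusted p below 0.1 in any of the 3 comparisons, beside 0.239% of genes for Detroit 562 against FaDu, 0.924% for Detroit 562 against SCC-9 and 0.0% for FaDu against SCC-9. At an unadjusted p below 0.05 there were 2, 3 and 1 members, and DESeq2 called 0 as well, beside 1.38%, 3.32% and 0.0256% of genes. For NOTCH3 the log2 response of Detroit 562 minus that of FaDu was -0.95 (95% interval -2.12 to 0.23) and minus that of SCC-9 was -1.38 (-2.56 to -0.19), with adjusted p values of 0.524 and 0.27. With the block 5 members differed between Detroit 562 and FaDu (19.1% of all genes) and 4 between Detroit 562 and SCC-9 (26.9%), with NOTCH3 at -0.98 (adjusted p = 0.00167) and -1.46 (adjusted p = 6.87e-05). The HES1 response differed by -0.40 (adjusted p = 0.0303) and -0.44 (adjusted p = 0.013) in the same comparisons. Between FaDu and SCC-9 no member (0 of 10) passed the test with the block either, beside 1.32% of genes.

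**Figure D3:**
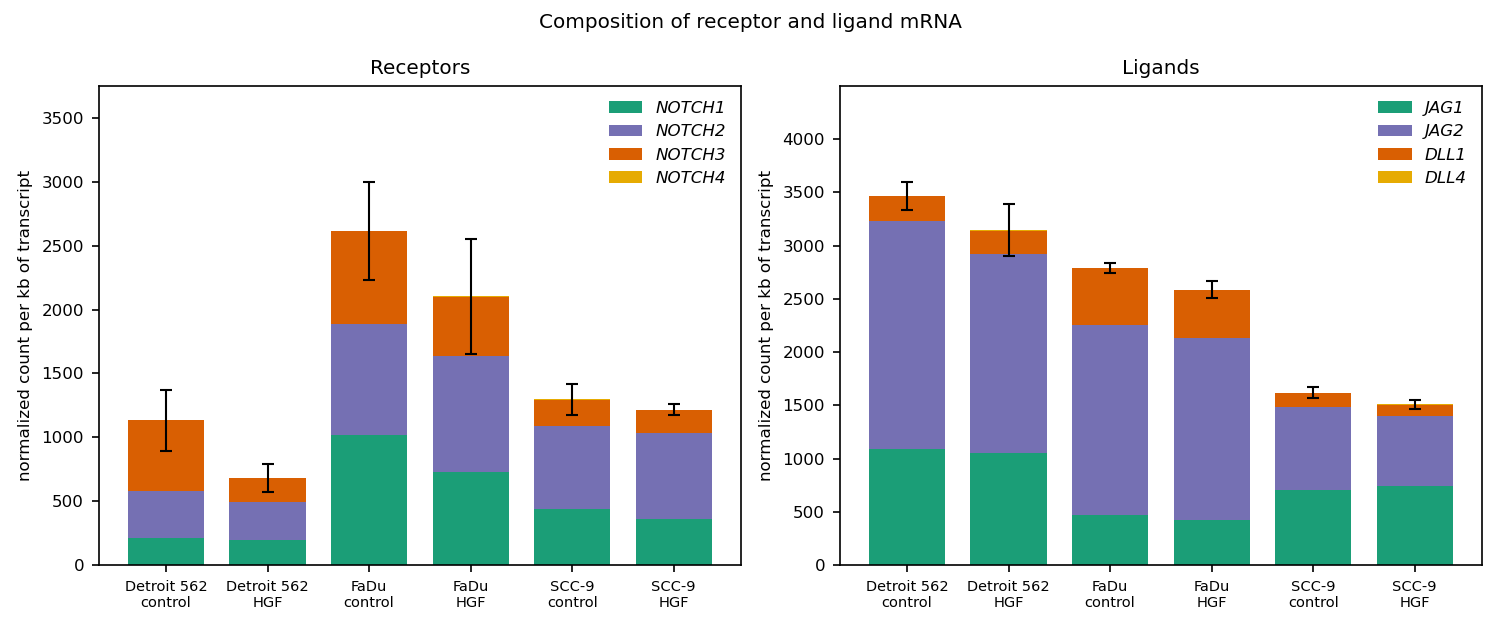
Mean normalized count per kb of canonical transcript of the receptors (left) and ligands (right) in the 6 groups, stacked by gene; error bars are the SD of the sum over 3 libraries, and NOTCH4 and DLL4 are too low to see. The receptor sum of Detroit 562 was 1134 in controls and 684 with HGF, and the NOTCH3 part made most of this difference. Counts include introns, whereas the transcript lengths do not.

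The ligand sum per kb in Detroit 562 was 3468 ± 132 in controls and 3145 ± 245 with HGF, and the share of JAG2 was 61.9% ± 1.3 and 59.0% ± 6.3. In FaDu the share of JAG2 was 64.1% ± 2.2 and 66.1% ± 2.9. In SCC-9 it was 47.9% ± 4.1 in controls and 42.9% ± 4.6 with HGF, while that of JAG1 was 43.6% ± 2.8 and 49.5% ± 4.0, so JAG1 had the higher mean with HGF. The libraries overlapped for both genes, and JAG1 exceeded JAG2 in 2 of the 3 HGF libraries. These shares were not tested. In FaDu the share of NOTCH2 in the receptors was 33.4% ± 3.3 in controls and 43.4% ± 5.8 with HGF, while that of NOTCH1 was 39.0% ± 2.5 and 34.8% ± 2.3. In SCC-9 NOTCH2 led in both groups, with 50.1% ± 4.3 and 55.4% ± 5.0.

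The rest of the pathway was described with 58 listed genes, of which 52 passed the filter. In Detroit 562 11 of the 52 were called with HGF, 10 as lower and 1 as higher, beside the 17.9% of all genes given above. The median log2 fold change of the list was -0.14. Neither FaDu nor SCC-9 had a call among the 52 in edgeR without the block (0 each). With the block 7 were called in FaDu, beside 5.6% of all genes, and 1 in SCC-9, beside 1.97%, so the 1 of 52 in SCC-9 was near the share of all genes. DESeq2 with its prior and no block called 2 of 54 in FaDu, both as lower, beside 0.338% of all genes. In SCC-9 it called 0 of 54, beside 0.0973%.

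None of the 9 tested genes of receptor cleavage, the ADAM proteases, furin and the gamma-secretase subunits, was called in Detroit 562, beside 17.9% of all genes. Of 13 genes of ligand and receptor endocytosis or degradation, 3 fell, beside 11.7% of all genes called as lower. DTX4, a Deltex ubiquitin ligase, had 5782, 6033 and 3907 normalized counts in controls and 1659, 1753 and 1048 with HGF, a log2 fold change of -1.82 (SE 0.22, adjusted p = 0.000167). NEURL1B, a Neuralized ubiquitin ligase that acts on Notch ligands, went from 659, 620 and 381 to 220, 275 and 157 (-1.34, SE 0.25, adjusted p = 0.00222). For both genes HGF and control libraries were well apart, and both calls were kept when each library was left out in turn. DTX3L fell by 0.42 on the log2 scale (adjusted p = 0.01), a change that was under the minimum (down to 0.36 in size) without Detroit 562 control replicate 1 or HGF replicate 1 or 3.

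Among 7 other HES and HEY genes 2 fell and 1 rose in Detroit 562. HEY2 had raw counts of 51, 41 and 24 in controls and 13, 8 and 11 with HGF (log2 fold change -1.74, SE 0.37, adjusted p = 0.0042). HEYL went from 29, 31 and 21 to 19, 14 and 10 (-0.82, SE 0.29, adjusted p = 0.0501), a call lost without Detroit 562 control replicate 1 or 2 or HGF replicate 3. HES7, an oscillating repressor known from the segmentation of the embryo, went the other way, from 9, 10 and 12 to 43, 33 and 27 (1.81, SE 0.30, adjusted p = 0.00132). Of the 9 tested HES and HEY genes, HES1 and HEY1 included, 4 were called as lower and 1 as higher in this line, beside 11.7% and 6.16% of all genes. Of the 5, HEY2 and HES7 kept their calls when each library was left out in turn.

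Of the remaining roles in Detroit 562, DLK2, a non-canonical ligand, fell by 0.82 on the log2 scale (adjusted p = 0.0237), and LFNG, a Fringe glycosyltransferase that modifies the receptors, fell by 0.63 (adjusted p = 0.0604). The DLK2 call was lost without control replicate 1 or HGF replicate 3, and the LFNG call without control replicate 1 or 2 or HGF replicate 2 or 3. Of 15 genes of the nuclear complex and its corepressors, the Groucho family members TLE2 and TLE3 were called at -0.40 each. These 2 of 15 were near the 11.7% of all genes called as lower. At this edge of the minimum, leaving out Detroit 562 control replicate 1 or 2 or HGF replicate 2 or 3, FaDu HGF replicate 3 or any 1 SCC-9 library ended both calls, with the adjusted p up to 0.172 for TLE2 and 0.241 for TLE3. NOTCH2NL was called at -0.40 too, at 0.175 to 0.313 times the raw count of NOTCH2 over the 18 libraries, and kept its call only when Detroit 562 control replicate 3 or HGF replicate 1 or 2, FaDu control replicate 1 or FaDu HGF replicate 1 was the library left out (adjusted p up to 0.256 for the others). With the replicate block it was at -0.39 and not called. Averaged over the lines, NEURL1B, DLK2, HEY2, LFNG and DTX4 were called as lower, with DTX4 at -1.02 (adjusted p = 0.000668), 5 of 52 beside 6.89% of all genes. With the replicate block 8 of the 52 were called, 7 as lower and 1 as higher, beside 8.8% of all genes. The 3 added were HES2, HEYL and, as higher, HES7. The average did not hold in each line. In FaDu the same-numbered pairs had log2 ratios of -0.57, 0.963 and 0.375 for HEY2. For HES7 they were 0.452, -0.847 and -0.875, whereas the SCC-9 pairs of both genes followed the averaged direction. The HES2 pairs had log2 ratios of -1.29, -0.815 and -1.29 in FaDu and -0.405, -0.163 and 0.219 in Detroit 562. In SCC-9 those of HES2 were 0.0139, -0.00505 and -0.0638, and those of HEYL 0.445, -0.168 and -1.13. Of the 5 called without the block, HEY2 (-0.67) was lost without Detroit 562 control replicate 1 or 2, FaDu control replicate 1, SCC-9 control replicate 1 or SCC-9 HGF replicate 3. LFNG (-0.45) was lost without Detroit 562 HGF replicate 3, FaDu control replicate 1, FaDu HGF replicate 2 or SCC-9 HGF replicate 3. Between Detroit 562 and SCC-9 the responses themselves differed for DTX4 (-1.46, adjusted p = 0.0534) and HES7 (1.62, adjusted p = 0.0695), beside the 0.924% of all genes given above. No pathway gene (0 of 52) passed between Detroit 562 and FaDu in this edgeR fit. In DESeq2 with its prior 1 of 54 passed there, as higher, beside 1.38% of all genes. Between Detroit 562 and SCC-9 DESeq2 passed 3 of 54, beside 3.32%. With the replicate block 14 of the 52 passed between Detroit 562 and SCC-9, 12 between Detroit 562 and FaDu and 3 between FaDu and SCC-9, beside 26.9%, 19.1% and 1.32% of all genes. The DTX4 difference was lost without Detroit 562 control replicate 1 or 2 or HGF replicate 3 or any 1 SCC-9 library (adjusted p up to 0.192). The HES7 difference was lost without Detroit 562 control replicate 1 or 2 or HGF replicate 1 or 3, or SCC-9 control replicate 2 or 3 or HGF replicate 1 or 3 (adjusted p up to 0.279).

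**Figure D4:**
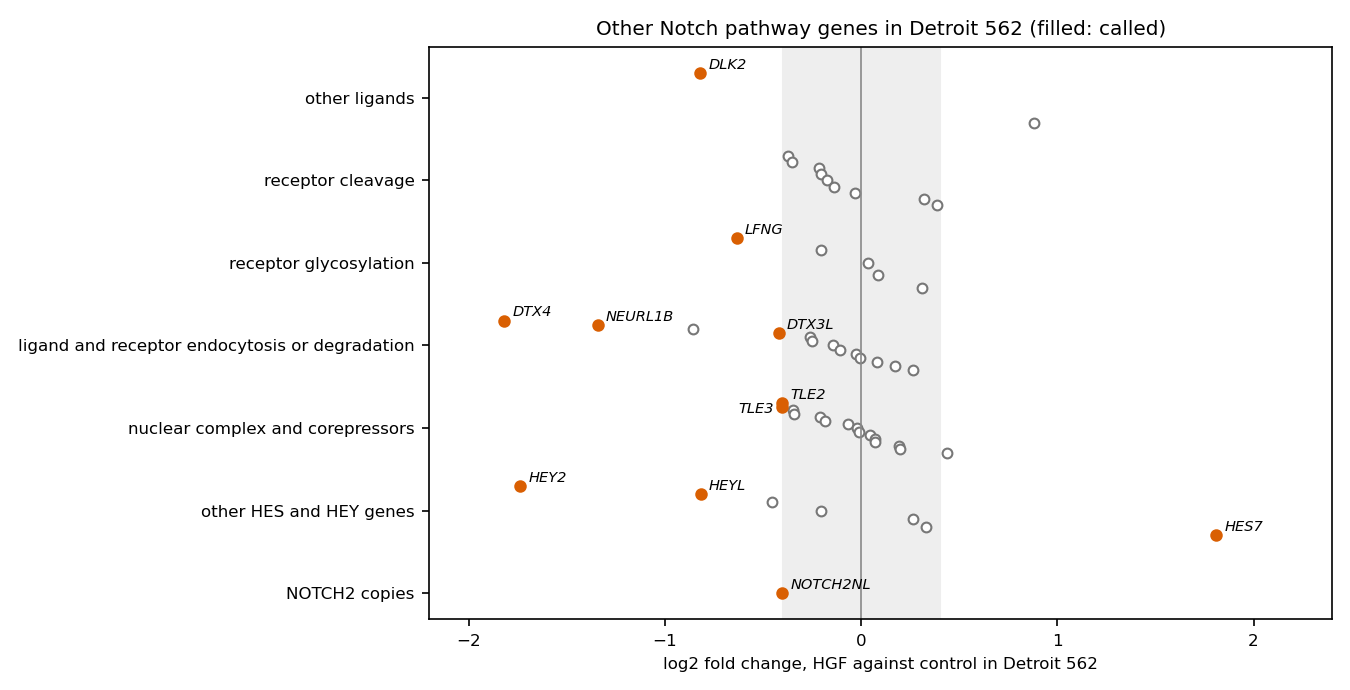
Log2 fold change of HGF against control in Detroit 562 for the 52 tested genes of the rest of the pathway, grouped by role; filled symbols with names were called, open ones were not, and the grey band marks changes under 0.4. Of the 11 called genes 10 lie left of 0, from -1.82 for DTX4 to -0.40, and HES7 lies at 1.81.

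Genes whose pattern was most like that of a member were sought as the highest Pearson correlations of log2 CPM over the 18 libraries. All points share the same libraries and their normalization, and differences between the lines weigh heavily in them, so the values are descriptions. NOTCH3 was closest to KRT15, a keratin of basal keratinocytes (r = 0.98), and to RAPGEFL1 (r = 0.969). In Detroit 562 KRT15 had 7213, 6060 and 3021 normalized counts in controls and 1410, 1432 and 566 with HGF, so it was low in the same libraries as NOTCH3. HES1 was closest to CRYAB (r = 0.904) and MVK (r = 0.897). The closest genes were MKL1 for NOTCH1, AFTPH for NOTCH2, FMN1 for JAG1, TAPBPL for JAG2, HIST1H4K for DLL1 and THEM6 for HEY1, each at 0.972 or more. NOTCH4 was closest to GRINA (r = 0.935) and DLL4 to LSM10 (r = 0.802), the lowest value. Among the members, NOTCH1 and NOTCH2 ran together (r = 0.918), as did JAG1 and HEY1 (r = 0.915) and NOTCH3 and HES1 (r = 0.846), whereas NOTCH1 and JAG1 ran opposite (r = -0.914).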

How the data were processed

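Total RNA of 18 cultures was sequenced as stranded, poly(A)-selected mRNA libraries. The authors used Cutadapt (1.16) for trimming and STAR (2.5.2b) for alignment to GRCh38.p12 with GENCODE annotation and deposited raw counts, the number of alignments on a gene's strand over its whole extent, counted with bedtools without normalization. Reads in overlapping genes count more than once, and introns are included. In R 4.3.3 these counts were filtered with filterByExpr, scaled by TMM and fitted with edgeR 4.0.16's quasi-likelihood model over all 18 libraries and 6 groups, with Benjamini-Hochberg adjustment. The thresholds, 0.1 for the adjusted p and 0.4 for the absolute log2 fold change, follow the study, and differences between responses used the adjusted p alone. The fit was tested on simulated data. Pair ratios used a pseudocount of 0.5.

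The members and gene lists were chosen with earlier results of these data known. The named genes were the members, pathway genes called in a contrast with HGF, the 2 pathway genes with the largest difference between each pair of untreated lines, and the 2 genes most correlated with each member. NRARP was named after its values were seen. Deviations from the group means of control and HGF libraries with the same replicate number correlated at 0.161 to 0.563 in all 9 pairs. Control and HGF libraries of a line with different numbers correlated at -0.489 to 0.218, so the 2 ranges overlapped. Deviations from a mean of 3 libraries sum to 0, so the 2 ranges are not independent, and genes are not independent replicates. The fit with the replicate block takes the numbers as pairs, which the records do not state. The records do not say that replicates came from separate cultures, beyond the study's repeated experiments. Alternatives were a replicate block within each line, DESeq2 size factors, no filter, DESeq2 1.42.0 with and without its prior, a fit within 1 line, no minimum fold change and leaving out each library. GENCODE 44 gave transcript lengths, and promoters came from RefSeq (GRCh38.p14).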

Additional observations from a re-analysis of the deposited data

Results flagged for a closer look

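With a replicate block, the test of the difference between responses to HGF passed for members in which it did not pass without the block. Between Detroit 562 and FaDu the response, given as Detroit 562 minus FaDu on the log2 scale, differed for NOTCH3 (-0.98), HES1 (-0.40), NOTCH2 (-0.33), NOTCH1 (0.36) and DLL4 (2.22). The responses of NOTCH3, HES1 and NOTCH2 were thus lower, and those of NOTCH1 and DLL4 higher, in Detroit 562 than in FaDu. The edgeR adjusted p values were 0.00167, 0.0303, 0.0765, 0.0464 and 0.0323 in this order. NOTCH1 had a negative log2 fold change in both lines without the block, -0.12 in Detroit 562 and -0.48 in FaDu. Between Detroit 562 and SCC-9 the response differed for NOTCH3 (-1.46), HEY1 (-1.11), HES1 (-0.44) and NOTCH2 (-0.34), with adjusted p values of 6.87e-05, 0.0468, 0.013 and 0.0521. Without the block the adjusted p of these 9 differences lay above 0.1, and 19.1% and 26.9% of all genes tested differed in these comparisons with the block. DLL4 and HEY1 rest on raw counts of 2 to 38 in FaDu and SCC-9.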

How the results depend on the processing

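The count of called members in Detroit 562 stayed at 5 with the replicate block and with DESeq2, and ran from 2 to 5 when each library was left out, with 2 without HGF replicate 2 and 3 without control replicate 1 or 2 or HGF replicate 3. Over all genes in this line, 2766 of 15475 were called with every library kept and 2897 of 15654 without HGF replicate 2. The calls were 1586 of 15617 without control replicate 1, 1958 of 15632 without control replicate 2 and 1875 of 15643 without HGF replicate 3. In FaDu the count of called members rose from 0 to 2 with the replicate block. Averaged over the lines it was 2, 1 to 2 with a library left out (1 without FaDu HGF replicate 3), and 5 with no minimum fold change. With the replicate block, responses of Detroit 562 differed from FaDu in 5 and from SCC-9 in 4 members, against 0 in both without it, and the block changed no other count of HGF calls among the members by over 1.5 times. Among the 52 other pathway genes the block moved the count from 0 to 7 in FaDu, from 0 to 1 in SCC-9 and from 5 to 8 averaged over the lines. For differences between responses it moved it from 0 to 12 for Detroit 562 minus FaDu, from 2 to 14 for Detroit 562 minus SCC-9 and from 0 to 3 for FaDu minus SCC-9. Over all genes the block moved the called share from 0.0258% to 5.6% in FaDu, from 0.0% to 1.97% in SCC-9 and from 6.89% to 8.8% averaged over the lines. In the same order of differences it moved the share from 0.239% to 19.1%, from 0.924% to 26.9% and from 0.0% to 1.32%. The 14 of 52 for Detroit 562 minus SCC-9 was thus near the share of all genes. The untreated counts stayed within 1.5 times of their values under every alternative.

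Directions turned only for differences that had not been called. With a library left out, the log2 values ranged for DLL1 in Detroit 562 from -0.226 to 0.0113, for JAG1 in Detroit 562 from -0.128 to 0.0314 and averaged over the lines from -0.0935 to 0.00196, for HES1 in FaDu from -0.288 to 0.0879 and in SCC-9 from -0.234 to 0.0313, for NOTCH2 in FaDu from -0.0765 to 0.165 and for NOTCH3 in SCC-9 from -0.409 to 0.0245. Between untreated lines they ranged for DLL4 in FaDu against SCC-9 from -0.368 to 0.019 and for HES1 in Detroit 562 against FaDu from -0.262 to 0.063. For differences between responses they ranged for HEY1 in Detroit 562 minus FaDu from -0.439 to 0.308, for JAG2 in Detroit 562 minus SCC-9 from -0.0783 to 0.185, and in FaDu minus SCC-9 for DLL1 from -0.0598 to 0.22, for HES1 from -0.169 to 0.227, for NOTCH2 from -0.138 to 0.104 and for NOTCH4 from -0.0871 to 0.609. In that last comparison HES1, at -0.00929, also turned to 0.00604 with no filter and to 0.000373 and 0.000401 with DESeq2 with and without its prior. NOTCH2, at -0.00316, turned to 0.00292 with DESeq2 size factors in edgeR, 0.00889 with no filter, and 0.0038 and 0.00382 with DESeq2. The causes were not tested.

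NOTCH4, DLL4 and, outside Detroit 562, HEY1 have few counts, which limits their precision. TLE2, TLE3 and NOTCH2NL lie at the minimum fold change and lost their calls under several alternatives.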

Other observations

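Outside the 10 members, several pathway genes differed between the untreated lines by far more than any receptor or ligand described above. MFNG, a Fringe glycosyltransferase, had raw counts of 703, 955 and 1236 in FaDu controls and 19, 10 and 21 in Detroit 562 (log2 difference of Detroit 562 against FaDu -5.75, SE 0.39, edgeR adjusted p = 8.46e-10). LFNG, its relative, had 1388, 1162 and 949 normalized counts in Detroit 562 controls and 406, 206 and 336 in FaDu, so the lines ranked the other way. DLL3, a ligand known to act in the same cell as the receptor, had raw counts of 0, 1 and 0 in Detroit 562 controls, while FaDu controls had 15, 22 and 11 and SCC-9 controls 179, 198 and 163. NEURL1 had raw counts of 4, 3 and 3 in Detroit 562 and 674, 617 and 567 in SCC-9 controls (-7.41, adjusted p = 1.34e-10).

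Among the HES genes, HES2 had 5950, 7120 and 7494 normalized counts in SCC-9 controls and 139, 174 and 97.9 in FaDu (log2 difference of FaDu against SCC-9 -5.65, SE 0.31, adjusted p = 4.15e-11). HES7 had raw counts of 267, 397 and 338 in SCC-9 and 2, 4 and 8 in FaDu (-6.14, SE 0.30, adjusted p = 1.09e-11). NRARP, a feedback inhibitor of the pathway that was singled out after its values were seen, had 7419, 5426 and 4593 normalized counts in FaDu controls, against 613, 491 and 361 in Detroit 562 and 176, 227 and 260 in SCC-9 controls. In FaDu the HGF libraries of NRARP had 5003, 4308 and 2502, lower in every pair, and were called with the replicate block (log2 fold change -0.59, adjusted p = 0.000575) and not without it.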
